A study of Homo sapiens with 78 samples.

Results

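The 9 genes described here are the epidermal growth factor receptor gene EGFR, its partner receptors ERBB2 and ERBB3, the intracellular receptor inhibitor ERRFI1, and the EGFR ligands AREG, EREG, HBEGF, TGFA and BTC. They were chosen by symbol with earlier results of these data known, and each of the 9 had a row among the 19652 genes of the expression table. RNA was sequenced from A549 cells, a single human lung carcinoma line with type II epithelial features and labelled wild type, which received interleukin-1β (IL-1β) at 1 ng/ml, the glucocorticoid budesonide at 300 nM, IL-1β-plus-budesonide, or no stimulus (NS), for 1, 2, 6, 12 or 24 hours. All groups shared an overnight period in serum-free medium and a change to fresh serum-free medium at the start of treatment, and a vehicle for the NS cells is not stated in the labels. The 20 groups held 78 labelled libraries, with 4 libraries in each of 18 groups and 3 libraries (replicates 1, 2 and 4) in IL-1β-plus-budesonide at 12 hours and NS at 6 hours. The labels give 4 independent experiments but only 3 for the 12-hour time, where the IL-1β, budesonide and NS groups each had 4 libraries.

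EGFR, ERBB2 and ERBB3 are tyrosine kinase receptors of the epithelial cell surface that work in pairs. EGFR binds all 5 ligands studied here, ERBB2 has no known ligand of its own and serves as the preferred partner, and ERBB3 has little kinase activity and binds neuregulins. The ligands are made as membrane-anchored precursors and are released by ADAM proteases, and ERRFI1 (also called MIG6) binds the active EGFR kinase domain and blocks it. In the airway epithelium these receptors are known for roles in repair and mucus production. IL-1β is a proinflammatory cytokine that activates NF-κB, and budesonide is an inhaled glucocorticoid that acts on the glucocorticoid receptor.

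Expression was given as normalized TPM, the share of transcripts held by a gene, a unit that corrects for transcript length, so that levels of different genes can be set side by side on this scale. The summed TPM of a library ranged from 812680 to 1009500, mitochondrial transcripts took 11.8% to 17.2% of it, and 11738 to 12321 genes reached 1 TPM. The read depth behind each library is not known from this unit. The treatments left their known marks: CXCL8, the neutrophil chemokine, rose by 7.5 to 8.85 on the log2 scale with IL-1β over the 5 times, and TSC22D3, a glucocorticoid-induced leucine zipper gene, rose by 2.36 to 4.70 with budesonide, each against NS. Epithelial markers summed to 3885 to 9585 TPM with IL-1β, 7718 to 22149 TPM with budesonide, 7249 to 16747 TPM with IL-1β-plus-budesonide and 5148 to 10460 TPM in NS libraries. Fibroblast markers summed to 4.98 to 17.4 TPM, 4.91 to 14.8 TPM, 4.15 to 14.9 TPM and 8.32 to 25.3 TPM in these same 4 sets, and immune and endothelial markers to at most 8.42 and 2.17 TPM in any library. The part of these marker levels in the results was not tested. Replicate 2 of IL-1β at 24 hours and replicate 2 of IL-1β-plus-budesonide at 12 hours stood apart from their groups, with distances of 0.594 and 0.703 log2 units against at most 0.514 in the other 76 libraries. Results that lost their call or moved by over 1.5 times without either library are given with and without it.

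The genes lie on 7 chromosomes (GRCh38): EGFR at chr7:55019017-55211628, ERBB2 at chr17:39687914-39730426, ERBB3 at chr12:56076799-56103505, ERRFI1 at chr1:8004404-8026309, HBEGF at chr5:140332843-140346603 and TGFA at chr2:70447284-70554193. The other 3 ligand genes are neighbours on chromosome 4, with EREG at chr4:74365145-74388749, AREG at chr4:74445136-74455005 and BTC at chr4:74744759-74794523. A gap of 56.4 kb separates EREG from AREG, and 289.8 kb separate AREG from BTC. Of the distinct 31-base stretches in annotated transcripts, ERBB2 shared 8.80% with other genes (most with MIEN1), ERBB3 6.39%, EREG 5.81%, ERRFI1 2.95% and EGFR 0.980%, whereas AREG, HBEGF, TGFA and BTC shared 0. Reads from such stretches could have been divided between genes when the TPM were made.

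The upstream sequences of AREG and EREG are shown because these neighbouring ligand genes moved in the same direction with each single treatment, as described below. Each is the 250 bases that end just before the RefSeq transcription start, on the plus strand of GRCh38.p14, with motif matches in capitals.
AREG, chr4:74444886-74445135: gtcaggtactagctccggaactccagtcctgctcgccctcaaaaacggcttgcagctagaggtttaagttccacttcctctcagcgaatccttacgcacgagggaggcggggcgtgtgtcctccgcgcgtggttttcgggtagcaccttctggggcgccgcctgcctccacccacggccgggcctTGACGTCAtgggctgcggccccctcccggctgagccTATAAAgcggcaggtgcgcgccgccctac
EREG, chr4:74364895-74365144: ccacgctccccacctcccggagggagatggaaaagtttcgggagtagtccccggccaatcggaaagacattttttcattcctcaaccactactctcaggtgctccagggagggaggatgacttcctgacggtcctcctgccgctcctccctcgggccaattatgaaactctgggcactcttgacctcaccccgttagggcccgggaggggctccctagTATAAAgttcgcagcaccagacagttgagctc
Both sequences carry the TATA box letters TATAAA, which start 29 bases before the start site in AREG and 32 bases before it in EREG, and which 12.0% of 27305 promoters of 300 bases hold on either strand. The cyclic AMP response element TGACGTCA starts 65 bases before the AREG start site and is held by 1.98% of promoters. RefSeq promoters were matched for 8 of the 9 genes. In their 300-base windows, the AP-1 letters TGANTCA (7.76% of promoters) were found in ERBB2 and an NF-κB motif (5.67% of promoters) in BTC. The palindromic glucocorticoid response element (0.388% of promoters) was found in 0 of the 8 windows. A match describes letters and not a bound site, and the absence of a match covers only these windows.

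Unstimulated cells expressed the receptors and ERRFI1 above most of the ligands. Over the 19 NS libraries the median level was 44.0 TPM for ERBB2, 40.4 TPM for ERRFI1, 21.3 TPM for AREG, 17.7 TPM for EGFR, 13.6 TPM for ERBB3, 7.80 TPM for EREG, 3.13 TPM for TGFA, 1.79 TPM for BTC and 0.820 TPM for HBEGF. Neighbours in this order overlapped in their ranges, except that the lowest EREG library (5.40 TPM) lay above the highest TGFA library (4.68 TPM). AREG was therefore the most abundant of the 5 ligand transcripts by its median and HBEGF the least. Of the 9 genes, 2 passed the test between 24 and 1 hours without stimulation. EGFR averaged 13.0 ± 0.883 TPM at 24 hours and 21.7 ± 2.17 TPM at 1 hour (SD, n = 4 each), and fell by 0.72 on the log2 scale (adjusted p = 0.00525). ERBB3 rose by 1.74 ± 0.50 (SE, adjusted p = 0.0222), with 29.7, 20.4, 26.7 and 52.9 TPM in NS libraries at 24 hours against 6.42, 6.06, 7.57 and 19.5 TPM at 1 hour. The ERBB3 difference lost its call without NS replicate 1, 2 or 3 at 1 hour (log2 change 1.60, 1.58 or 1.68) or NS replicate 4 at 24 hours (1.48), with adjusted p from 0.0548 to 0.116. ERRFI1 (-0.34, adjusted p = 0.0309) and TGFA (0.47, adjusted p = 0.00779) passed only with replicate number added to the linear model described below. Of all genes tested, 2.93% were higher and 3.01% lower at 24 hours than at 1 hour in NS cells, and 0.420% and 0.210% by at least 2-fold.

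A gene was taken as changed where its Benjamini-Hochberg adjusted p over 13327 genes was at most 0.05, in a linear model of log2(TPM + 0.5), and as changed 2-fold where the log2 change was also at least 1 in size. At this scale the changes of low genes (HBEGF, BTC and TGFA) are understated. With IL-1β against NS, 3 of the 9 genes (EGFR, AREG and EREG) were at least 2-fold higher at 1 or more times and 2 (ERBB2 and ERBB3) at least 2-fold lower, where 7.53% and 8.80% of all genes tested were. With budesonide, 2 (EGFR and ERRFI1) were higher and 2 (AREG and EREG) lower, where 4.87% and 6.36% of all genes were. With IL-1β-plus-budesonide against NS, 4 (EGFR, ERRFI1, AREG and EREG) were higher and 2 (ERBB3 and AREG) lower, where 7.64% and 7.92% of all genes were. Against IL-1β alone, IL-1β-plus-budesonide gave 2 higher (ERBB3 and ERRFI1) and 4 lower (AREG, EREG, HBEGF and TGFA), where 5.15% and 5.60% of all genes were. Against budesonide alone it gave 2 higher (AREG and EREG) and 1 lower (ERBB3), where 4.91% and 2.57% of all genes were. These comparisons share groups, so they are not independent of each other.

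**Figure D1:**
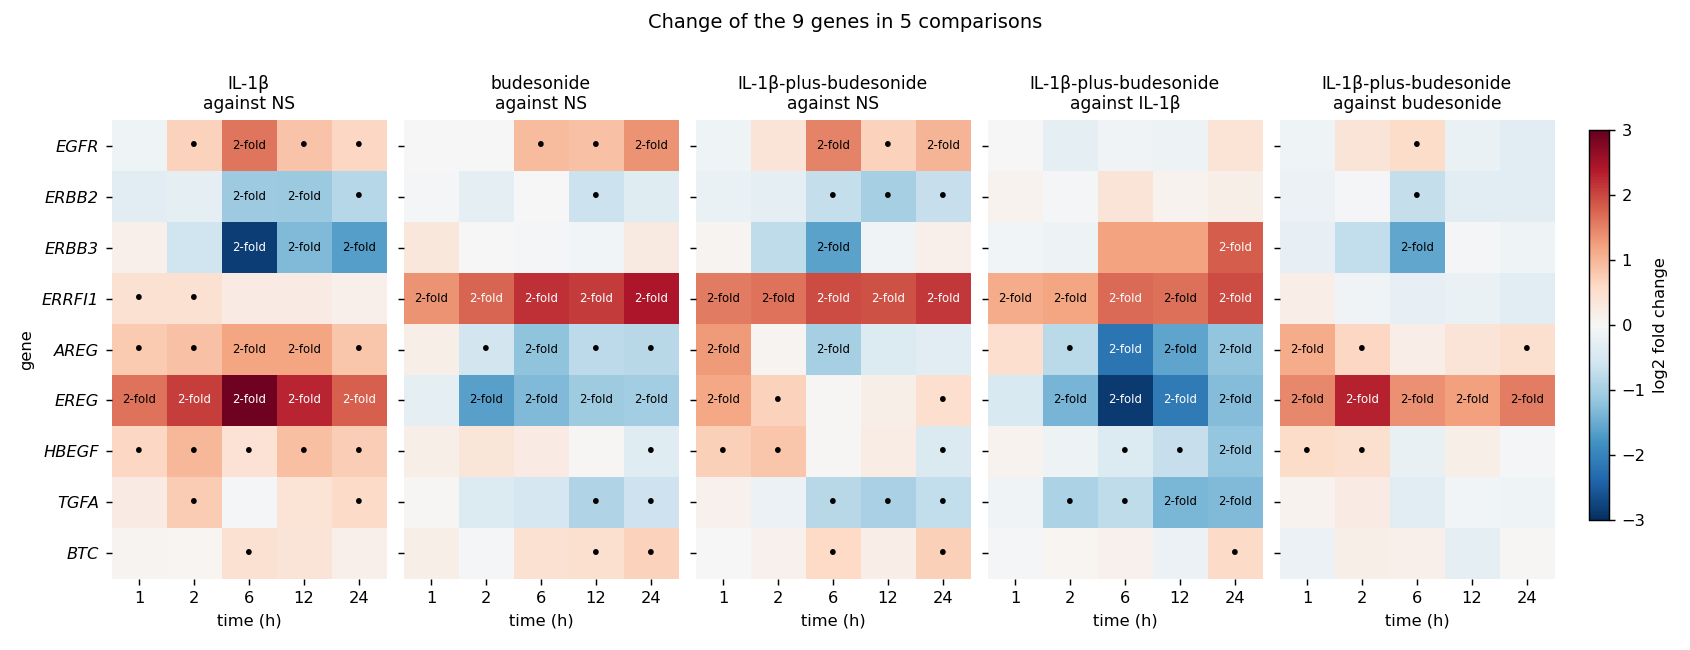
Log2 fold change (colour) of the 9 genes (rows) at 1 to 24 hours (columns) in 5 comparisons (panels). A dot marks an adjusted p of at most 0.05 and "2-fold" marks such a change of at least 1 in size; EREG was at least 2-fold higher with IL-1β at every time and ERRFI1 at least 2-fold higher with budesonide at every time.

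EGFR, the receptor itself, was raised by IL-1β and by budesonide with different timing. At 6 hours EGFR had 57.6, 60.1, 43.4 and 58.5 TPM with IL-1β, against 17.7, 18.8 and 16.6 TPM in NS cells. The lowest IL-1β library was more than the highest NS library, and the log2 rise was 1.60 ± 0.19 (SE, adjusted p = 1.16e-10). EGFR was also higher with IL-1β than in NS cells at 2 hours by 0.68, at 12 hours by 0.85 and at 24 hours by 0.61, whereas the groups overlapped at 1 hour (19.7 ± 2.05 TPM with IL-1β and 21.7 ± 2.17 TPM in NS cells; SD, n = 4 each). At 24 hours EGFR averaged 20.7 ± 5.81 TPM with IL-1β and 13.0 ± 0.883 TPM in NS cells (SD, n = 4 each). The IL-1β level was thus near that at 1 hour, and the NS level was lower. With budesonide, EGFR was at 39.1, 31.9, 29.6 and 35.1 TPM at 24 hours, against 13.3, 13.9, 11.8 and 13.1 TPM in NS cells. That rise was 1.34 ± 0.17 (SE, adjusted p = 1.70e-09), after rises of 0.94 at 6 hours and 0.89 at 12 hours, and at 1 and 2 hours budesonide and NS libraries overlapped. IL-1β-plus-budesonide gave 51.2, 56.3, 42.1 and 52.8 TPM at 6 hours, a rise of 1.49 ± 0.19 against NS (adjusted p = 1.80e-09). At 12 and 24 hours the rises with both agents were 0.70 and 1.02. The 12-hour value was 0.97 (adjusted p = 0.000113) without IL-1β-plus-budesonide replicate 2, which stood apart, and the 24-hour value was under 1 without IL-1β-plus-budesonide replicate 1 or 4 or NS replicate 3 (0.95 to 0.97). IL-1β-plus-budesonide did not pass the test against IL-1β at any time, and passed it against budesonide only at 6 hours (0.55, adjusted p = 0.0122). With replicate number added to the model, the difference from IL-1β at 24 hours passed (0.40, adjusted p = 0.0250).

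ERBB2, the preferred partner of EGFR, was lowered by IL-1β from 6 hours on. At 6 hours ERBB2 had 20.3, 16.1, 15.9 and 18.1 TPM with IL-1β, against 39.1, 42.7 and 32.8 TPM in NS cells, and no libraries overlapped. It fell by 1.10 at 6 hours (SE 0.19, adjusted p = 2.27e-06), by 1.10 at 12 hours and by 0.87 at 24 hours. The 12-hour value was -0.95 without IL-1β replicate 2 at that time, with the adjusted p at 2.89e-05. With IL-1β-plus-budesonide ERBB2 was at 22.4, 23.4, 22.7 and 22.8 TPM at 6 hours, and fell against NS by 0.72, 0.99 and 0.69 at 6, 12 and 24 hours. The 12-hour fall with both agents was 0.69 (adjusted p = 0.00660) without replicate 2, and the 24-hour fall with IL-1β was 0.65 (adjusted p = 0.00283) without IL-1β replicate 2, the libraries that stood apart. Budesonide alone lowered ERBB2 only at 12 hours, by 0.64 (adjusted p = 0.00316), with 26.6, 19.2, 30.4 and 37.1 TPM against 43.4, 34.9, 53.3 and 44.0 TPM in NS cells. With only the 12-hour libraries in the model that p was 0.0788. With replicate number added to the model, a fall with budesonide at 24 hours also passed (-0.36, adjusted p = 0.0467). Against budesonide alone, IL-1β-plus-budesonide lowered ERBB2 at 6 hours by 0.71 (adjusted p = 0.00101). The 6-hour libraries with both agents lay above every IL-1β library, but this difference did not pass the test (0.38, adjusted p = 0.0997). It passed with replicate number added to the model (0.38, adjusted p = 0.0444).

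ERBB3, the neuregulin-binding partner, had its lowest levels with IL-1β at 6 hours. ERBB3 was then at 1.53, 2.74, 1.58 and 1.93 TPM, against 13.2, 13.2 and 25.1 TPM in NS cells. It fell by 2.81 on the log2 scale (SE 0.54, adjusted p = 1.50e-05), the steepest fall among the 9 genes with IL-1β. With IL-1β-plus-budesonide at 6 hours it was at 5.13, 4.60, 5.71 and 4.88 TPM, and the fall against NS was 1.60 (adjusted p = 0.0178), which lost its call without NS replicate 4 (-1.30, adjusted p = 0.114). Against the budesonide libraries at 6 hours (9.24, 10.6, 16.7 and 37.2 TPM) it fell by 1.55 (adjusted p = 0.0134), which likewise lost its call without budesonide replicate 4 (-1.15, adjusted p = 0.104). ERBB3 did not pass the test with budesonide against NS at any time.

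ERBB3 with both agents was set against IL-1β and NS at the later times. At 24 hours ERBB3 had 32.8, 15.9, 37.3 and 67.0 TPM with IL-1β-plus-budesonide, 10.7, 3.45, 9.89 and 19.4 TPM with IL-1β, and 29.7, 20.4, 26.7 and 52.9 TPM in NS cells. IL-1β-plus-budesonide was higher than IL-1β by 1.81 ± 0.50 (SE, adjusted p = 0.00293), and this kept its call without each library in turn, at 1.38 (adjusted p = 0.0360) without IL-1β replicate 2. With IL-1β, ERBB3 was lower than in NS cells at 24 hours by 1.66 (adjusted p = 0.00641). That difference lost its call without IL-1β replicate 2, which stood apart (-1.23, adjusted p = 0.0684). It kept its call with replicate number added to the model, and the IL-1β libraries lay below every NS library. ERBB3 averaged 10.2 TPM at 1 hour and 10.8 TPM at 24 hours with IL-1β, and 9.89 and 32.4 TPM in NS cells. The 12-hour fall of 1.32 with IL-1β (adjusted p = 0.0316) lost its call without IL-1β replicate 2 (-1.03), IL-1β replicate 3 (-1.24) or NS replicate 4 (-1.01), with adjusted p from 0.0758 to 0.149, and with only the 12-hour libraries in the model (adjusted p = 0.147). ERBB3 levels also differed by replicate number: replicate 4 was the highest library in 16 of 20 groups, at 0.836 to 3.86 times the median of the other libraries of its group, with a median ratio of 2.04. Against IL-1β, ERBB3 with both agents did not pass the test at 6 or 12 hours (1.21 each, adjusted p = 0.0579 and 0.0766). Both differences passed with replicate number added to the model (1.21 and 1.23, adjusted p = 0.00177 and 0.00336).

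ERRFI1, the inhibitor of the EGFR kinase, was the most budesonide-responsive of the 9 genes and rose at every time. At 1 hour ERRFI1 already stood at 125, 123, 132 and 131 TPM with budesonide, against 45.7, 49.1, 50.6 and 53.6 TPM in NS cells. At 24 hours it was at 218, 197, 213 and 229 TPM with budesonide, against 37.0, 40.0, 39.7 and 40.4 TPM in NS cells. No budesonide library overlapped an NS library at any time, and the log2 rises were 1.35, 1.74, 2.19, 2.11 and 2.43 at 1, 2, 6, 12 and 24 hours, each with an SE of 0.12 or 0.13 and an adjusted p of at most 4.39e-13. IL-1β-plus-budesonide raised it against NS by 1.56, 1.64, 1.95, 1.90 and 2.13 at the same times. It was also higher than with IL-1β alone at every time, by 1.11 at 1 hour to 1.97 at 24 hours.

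IL-1β alone gave small early rises of ERRFI1. At 2 hours it was at 57.5, 61.2, 61.6 and 50.3 TPM with IL-1β, against 41.2, 40.6, 41.2 and 45.3 TPM in NS cells, a rise of 0.45 (adjusted p = 0.00489). The 1-hour rise of 0.45 (adjusted p = 0.0211; 68.0 ± 2.86 TPM with IL-1β and 49.8 ± 3.28 TPM in NS cells, SD, n = 4 each) lost its call without IL-1β replicate 3 (0.42) or 4 (0.45) or NS replicate 1 (0.41) or 2 (0.44), with adjusted p from 0.0528 to 0.107. IL-1β-plus-budesonide did not pass the test against budesonide alone at any time, although at 6 hours its libraries (141, 147, 143 and 158 TPM) lay below the budesonide libraries (171, 164, 175 and 187 TPM), as they did at 24 hours. With replicate number added to the model, the 24-hour difference passed (-0.31, adjusted p = 0.0417). Set against EGFR in the same library, ERRFI1 transcript was at a median of 6.36 times the EGFR level with budesonide, 6.42 times with IL-1β-plus-budesonide, 2.22 times with IL-1β and 2.99 times in NS cells at 24 hours. At 6 hours these ratios were 5.16, 2.87, 0.776 and 2.04, so that only IL-1β libraries held less ERRFI1 than EGFR transcript at that time.

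**Figure D2:**
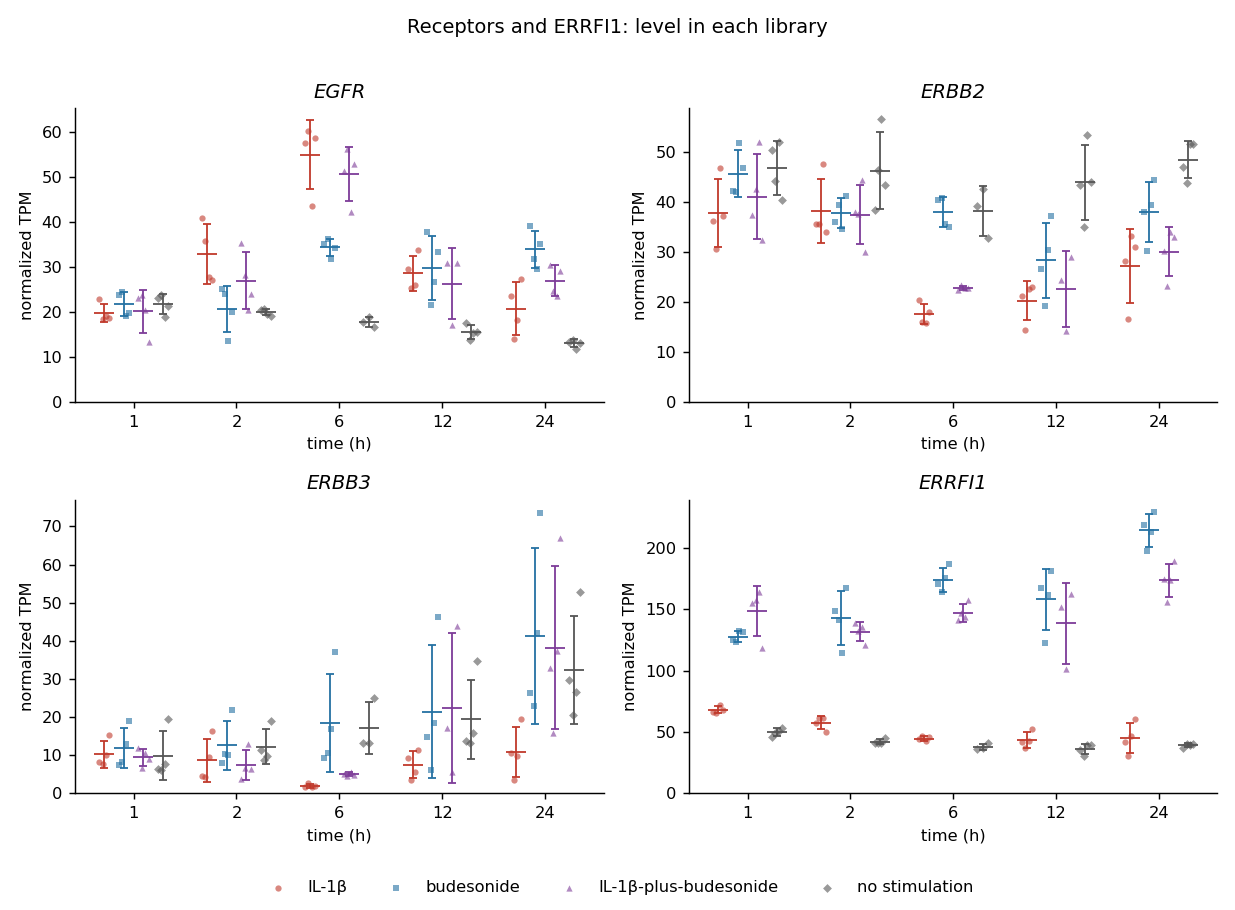
TPM of EGFR, ERBB2, ERBB3 and ERRFI1 (vertical axes) in each library (points) by treatment (colour and shape) and time (horizontal axis), with group means (long bars) ± SD (capped lines); n = 4, or 3 in IL-1β-plus-budesonide at 12 hours and NS at 6 hours. EGFR with IL-1β reached 43.4 to 60.1 TPM at 6 hours, ERBB3 fell to 1.53 to 2.74 TPM there, and ERRFI1 with budesonide lay above every NS library at each time.

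AREG, which encodes amphiregulin, rose with IL-1β at each of the 5 times and was lowered by budesonide from 2 hours on. At 6 hours AREG was at 59.2, 71.1, 63.6 and 58.4 TPM with IL-1β, 12.8, 14.0, 12.5 and 8.40 TPM with budesonide, and 31.4, 29.6 and 22.3 TPM in NS cells. The IL-1β libraries lay above and the budesonide libraries below every NS library, with log2 changes of 1.18 ± 0.16 (adjusted p = 1.05e-08) and -1.20 ± 0.16 (SE, adjusted p = 2.32e-08). The IL-1β rises were 0.78, 0.87, 1.18, 1.19 and 0.84 at 1, 2, 6, 12 and 24 hours. The falls with budesonide were 0.55, 1.20, 0.79 and 0.83 from 2 to 24 hours. At 2 hours that fall (adjusted p = 0.0192) lost its call without budesonide replicate 4 (-0.50) or NS replicate 1 (-0.46) or 2 (-0.50), with adjusted p from 0.0874 to 0.142, and with median-of-ratios scaling (adjusted p = 0.0544) or quantile normalization (0.0631).

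AREG with both agents was above NS at 1 hour and below its level with IL-1β from 2 hours on. At 1 hour AREG was at 54.9, 45.9, 41.6 and 43.8 TPM with IL-1β-plus-budesonide, against 21.7, 21.3, 16.5 and 16.6 TPM in NS cells, a rise of 1.27 ± 0.15 (SE, adjusted p = 8.79e-10). The IL-1β libraries at 1 hour (36.9, 35.5, 27.6 and 31.4 TPM) all lay below those with both agents, a difference of 0.50 that did not pass the test (adjusted p = 0.151). At 6 hours it was at 12.4, 16.1, 13.8 and 11.8 TPM with both agents, below every NS library. That fall against NS was 1.00 (adjusted p = 9.29e-07), and without IL-1β-plus-budesonide replicate 1 or 4 or NS replicate 1 or 2 it was between -0.97 and -0.91, with adjusted p of at most 8.58e-05. Against IL-1β alone, AREG with both agents was lower by 0.80, 2.18, 1.59 and 1.18 on the log2 scale at 2, 6, 12 and 24 hours, with no overlap between libraries at these times. Against budesonide alone it was higher by 1.10 at 1 hour and 0.62 at 2 hours. The 24-hour value of 0.49 (adjusted p = 0.0208) lost its call without budesonide replicate 1 (0.48) or 4 (0.40) or IL-1β-plus-budesonide replicate 2 (0.47) or 3 (0.43), with adjusted p from 0.0520 to 0.120.

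EREG, which encodes epiregulin, had the steepest rise of the 9 genes with IL-1β. At 6 hours EREG was at 72.4, 83.3, 70.7 and 74.0 TPM with IL-1β, against 9.43, 10.0 and 9.27 TPM in NS cells, a rise of 2.91 ± 0.22 (SE, adjusted p = 1.94e-17). It was at least 2-fold higher with IL-1β at all 5 times, by 1.62, 2.07, 2.91, 2.28 and 1.80 at 1, 2, 6, 12 and 24 hours, and IL-1β and NS libraries overlapped at none of them. Budesonide alone lowered EREG at 2 hours to 3.92, 3.80, 2.07 and 3.49 TPM, against 12.5, 12.2, 9.60 and 9.94 TPM in NS cells. This fall was 1.62 (SE 0.21, adjusted p = 1.56e-08), followed by falls of 1.32, 1.07 and 1.03 at 6, 12 and 24 hours. The 12-hour fall was under 1 in size without budesonide replicate 2 (-0.96), and the 24-hour fall without budesonide replicate 4 (-0.94) or NS replicate 2 (-0.98), with adjusted p of at most 0.000553.

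With both agents EREG rose at 1 hour and was near its unstimulated level by 6 hours. At 1 hour EREG was at 25.8, 24.4, 19.7 and 10.8 TPM with IL-1β-plus-budesonide, against 9.45, 10.1, 7.10 and 6.95 TPM in NS cells, a rise of 1.16 (adjusted p = 4.48e-05). At 6 hours it was at 9.48, 10.6, 9.15 and 10.2 TPM, which overlapped the NS libraries. Against IL-1β alone it was lower by 1.39, 2.87, 2.11 and 1.29 at 2, 6, 12 and 24 hours, with no overlap between libraries. Against budesonide alone it was higher at every time, by 1.45, 2.30, 1.36, 1.24 and 1.54, again with no overlap. The rises against NS at 2 hours (0.68, adjusted p = 0.0156) and 24 hours (0.51, adjusted p = 0.0460) were less firm. The 2-hour rise lost its call without IL-1β-plus-budesonide replicate 1 (0.57) or 2 (0.62) or NS replicate 3 (0.62), with adjusted p from 0.0566 to 0.0922. The 24-hour rise lost it without any of 7 single libraries, that is each of the 8 in the comparison but NS replicate 2, with log2 changes from 0.43 to 0.55 and adjusted p from 0.0521 to 0.133, and also with no filter on low genes (adjusted p = 0.0621) or only the 24-hour libraries in the model (0.0711). In the same libraries, EREG transcript was at a median of 1.20 times the AREG level with IL-1β, 0.275 times with budesonide, 0.712 times with IL-1β-plus-budesonide and 0.338 times in NS cells at 6 hours.

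HBEGF, which encodes heparin-binding EGF-like growth factor, had the lowest median of the ligand transcripts in NS cells and rose with IL-1β at every time. At 2 hours HBEGF was at 2.73, 2.45, 1.71 and 2.70 TPM with IL-1β, against 1.10, 0.837, 0.704 and 1.16 TPM in NS cells, a rise just under 2-fold on the log2(TPM + 0.5) scale (0.9957, SE 0.13, adjusted p = 9.89e-09). The rises at 1, 6, 12 and 24 hours were 0.62, 0.44, 0.91 and 0.73, and IL-1β libraries lay above NS libraries at all 5 times. With budesonide the 2-hour libraries were at 1.44, 1.24, 1.17 and 1.60 TPM, all above the NS libraries, but the difference did not pass the test (0.37, adjusted p = 0.143), nor did that at 6 hours (0.25, adjusted p = 0.275), where no libraries overlapped either. IL-1β-plus-budesonide raised it at 1 hour by 0.72 and at 2 hours by 0.84. Against budesonide alone these early rises were 0.55 and 0.47, and they lost their call without budesonide replicate 3 at 1 hour (0.39, adjusted p = 0.215) and without IL-1β-plus-budesonide replicate 1 at 2 hours (0.37, adjusted p = 0.0997), and with only the libraries of that time in the model (adjusted p = 0.0760 and 0.0880).

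By 24 hours HBEGF with both agents was below its level with IL-1β. It had 0.540, 0.539, 0.531 and 0.670 TPM with IL-1β-plus-budesonide, 1.58, 2.08, 1.77 and 2.14 TPM with IL-1β, and 0.790, 0.807, 0.831 and 1.40 TPM in NS cells. Against IL-1β the fall was 1.16 (SE 0.13, adjusted p = 7.83e-11), which was 0.88 with a pseudocount of 1, after falls of 0.69 at 12 hours and 0.42 at 6 hours. The 6-hour fall lost its call without IL-1β-plus-budesonide replicate 3 (-0.35, adjusted p = 0.0580). Against NS at 24 hours HBEGF was lower with both agents (-0.43, adjusted p = 0.00706) and with budesonide (-0.37, adjusted p = 0.0199). Both differences lost their call without NS replicate 4 (-0.29 and -0.24, adjusted p = 0.0899 and 0.178) and with quantile normalization (adjusted p = 0.0627 and 0.117), and that with budesonide also without budesonide replicate 2 or 4 (-0.34 each, adjusted p = 0.0570 and 0.0540).

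TGFA, which encodes transforming growth factor α, rose with IL-1β at 2 hours and was lower with budesonide present at later times. At 2 hours TGFA was at 5.81, 4.59, 5.44 and 6.76 TPM with IL-1β, against 3.06, 3.05, 3.05 and 3.13 TPM in NS cells, a rise of 0.77 (SE 0.20, adjusted p = 0.00272). A 24-hour rise of 0.57 with IL-1β (adjusted p = 0.0200) lost its call without IL-1β replicate 1 (0.52) or 4 (0.44) or NS replicate 1 (0.51), with adjusted p from 0.0534 to 0.100, and with only the libraries of that time in the model (adjusted p = 0.0694). Budesonide lowered TGFA at 12 hours by 0.90, with 1.81, 1.15, 1.64 and 2.35 TPM against 3.17, 3.09, 3.72 and 4.52 TPM in NS cells. At 2 and 6 hours its libraries also lay below every NS library, but these falls did not pass the test (adjusted p = 0.442 and 0.0984). They passed with replicate number added to the model (-0.41 and -0.50, adjusted p = 0.0425 and 0.00480). A 12-hour rise with IL-1β also passed only in that model (0.40, adjusted p = 0.00813). The 24-hour fall of 0.61 with budesonide lost its call without budesonide replicate 2 (-0.47, adjusted p = 0.0714).

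With both agents TGFA fell against NS by 0.83, 0.97 and 0.75 at 6, 12 and 24 hours. At 24 hours it was at 2.04, 2.20, 1.75 and 3.19 TPM with IL-1β-plus-budesonide, against 7.06, 4.59, 5.84 and 8.38 TPM with IL-1β. These libraries did not overlap, and the fall against IL-1β was 1.31 (SE 0.20, adjusted p = 1.49e-07). The falls against IL-1β at 2, 6 and 12 hours were 0.94, 0.77 and 1.38. IL-1β-plus-budesonide did not pass the test against budesonide alone for TGFA at any time. With replicate number added to the model, a fall at 6 hours passed (-0.32, adjusted p = 0.0446).

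BTC, which encodes betacellulin, was the only ligand that passed the test upward with budesonide. With replicate number added to the model, HBEGF also did so at 2 hours (0.37, adjusted p = 0.0151) and 6 hours (0.31, adjusted p = 0.0346). At 24 hours BTC was at 2.88, 3.32, 3.79 and 2.94 TPM with budesonide and 3.75, 3.56, 2.57 and 3.40 TPM with IL-1β-plus-budesonide, against 1.74, 1.67, 1.99 and 1.79 TPM in NS cells. Both sets lay above the NS libraries, with rises of 0.70 (SE 0.17, adjusted p = 0.000737) and 0.72 (adjusted p = 0.000473). The other BTC differences rested on single libraries. A rise of 0.49 with budesonide at 12 hours (adjusted p = 0.0260) lost its call without budesonide replicate 3 (0.35, adjusted p = 0.159) or NS replicate 4 (0.42, adjusted p = 0.0961) and with only the 12-hour libraries in the model (adjusted p = 0.0815). At 6 hours the rise of 0.60 with both agents (adjusted p = 0.00977) lost it without NS replicate 4 (0.53, adjusted p = 0.0594). The 6-hour rise of 0.47 with IL-1β (adjusted p = 0.0360) lost it without IL-1β replicate 1, 3 or 4 or NS replicate 1 or 4 (0.39 to 0.48, adjusted p from 0.0501 to 0.140). Against IL-1β at 24 hours, the rise of 0.58 with both agents (adjusted p = 0.00631) lost it without IL-1β replicate 2 (0.43, adjusted p = 0.0642).

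**Figure D3:**
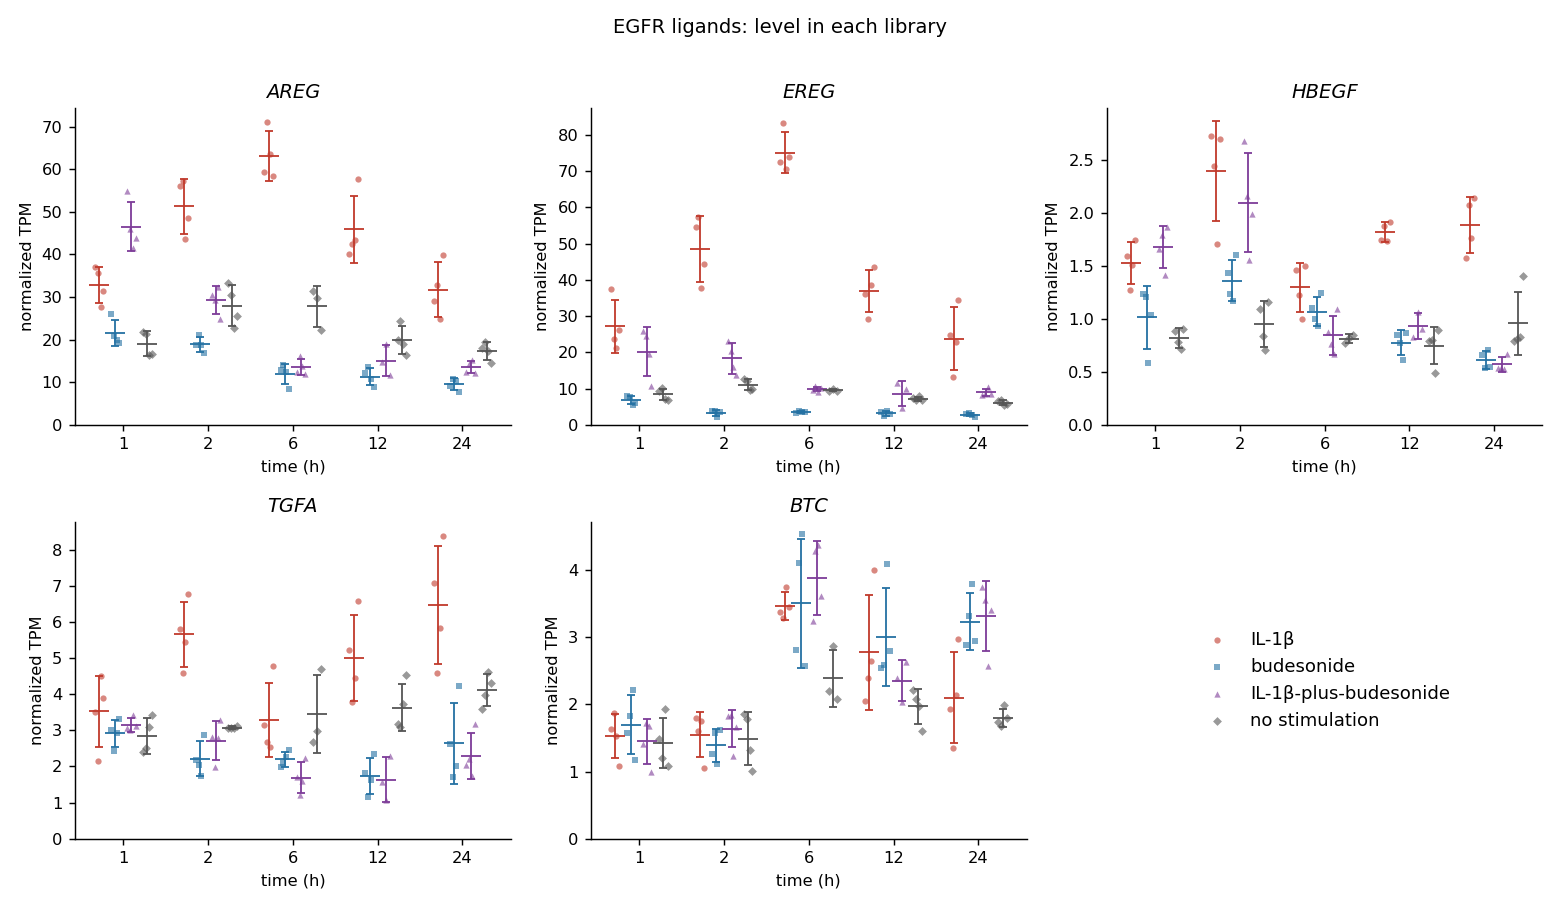
TPM of the 5 EGFR ligand genes (vertical axes) in each library (points) by treatment (colour and shape) and time (horizontal axis), with group means (long bars) ± SD (capped lines); n = 4, or 3 in IL-1β-plus-budesonide at 12 hours and NS at 6 hours. EREG with IL-1β peaked at 70.7 to 83.3 TPM at 6 hours, where IL-1β-plus-budesonide gave 9.15 to 10.6 TPM, and AREG with both agents was at 41.6 to 54.9 TPM at 1 hour.

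The effect of both agents was then set against the sum of both single effects on the log2 scale, each against NS at the same time. Genes with a combined change below that sum numbered 4 of the 9 at 1 or more times (EGFR, AREG, EREG and HBEGF) and 1 gene (ERBB2) was above it, where 11.6% and 13.3% of all genes tested were. At 2-fold, EGFR and EREG were below the sum and 0 of the 9 genes above it by limma (2 genes above it at an unadjusted p under 0.05), where 3.47% and 4.52% of all genes were. For EGFR at 6 hours the combined change was 1.49 and the difference from the sum of the rises of 1.60 with IL-1β and 0.94 with budesonide was -1.05 ± 0.26 (SE, adjusted p = 0.00278). The size of this difference was under 1 without IL-1β-plus-budesonide replicate 3 (-0.97) and with quantile normalization (-0.99). EREG at 6 hours differed from the sum by -1.55 ± 0.31 (SE, adjusted p = 0.000185) and kept its call without each library in turn, and AREG differed by -0.99 (adjusted p = 0.00108). EGFR at 24 hours differed by -0.94 (adjusted p = 0.00398), and HBEGF by -0.67, -0.73 and -0.79 at 6, 12 and 24 hours (adjusted p from 0.00137 to 0.0155). At 1 and 2 hours 0 of 18 tests passed with limma, and 2 had an unadjusted p under 0.05. With replicate number added to the model, 6 genes were below the sum (ERRFI1 and TGFA joined) and 2 above it (ERBB3 joined). In that model 2 tests at 1 and 2 hours passed, both at 2 hours. These were ERRFI1 (-0.55, adjusted p = 0.0410) and HBEGF (-0.53, adjusted p = 0.0328).

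The 12-hour differences from the sum rested in part on a library that stood apart. Without IL-1β-plus-budesonide replicate 2, the EREG difference of -1.04 (adjusted p = 0.0175) was -0.67 (adjusted p = 0.175) and the EGFR difference of -1.05 (adjusted p = 0.00306) was -0.77 (adjusted p = 0.0474). Without NS replicate 2, budesonide replicate 1 or 4 or IL-1β replicate 4, the EGFR difference was between -0.999 and -0.93 and still passed the test. Without budesonide replicate 1 or 3 or IL-1β replicate 4, the EREG difference was between -0.98 and -0.95 and still passed. The ERBB2 difference of 0.76 was 1.06 (adjusted p = 0.00404) without IL-1β-plus-budesonide replicate 2. The AREG difference of -0.80 (adjusted p = 0.0106) lost its call without IL-1β-plus-budesonide replicate 4 (-0.63, adjusted p = 0.0675). With all libraries the ERBB2 difference had an adjusted p of 0.0460, and it lost its call without any of 8 single libraries (0.55 to 0.76, adjusted p from 0.0636 to 0.193), namely IL-1β-plus-budesonide replicates 1 and 4, IL-1β replicate 2, budesonide replicates 1 and 2, and NS replicates 1, 3 and 4. With only the 12-hour libraries in the model, the differences for EGFR, EREG, AREG and ERBB2 had adjusted p of 0.0658, 0.109, 0.120 and 0.318, and with no filter on low genes that for ERBB2 had 0.0631.

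**Figure D4:**
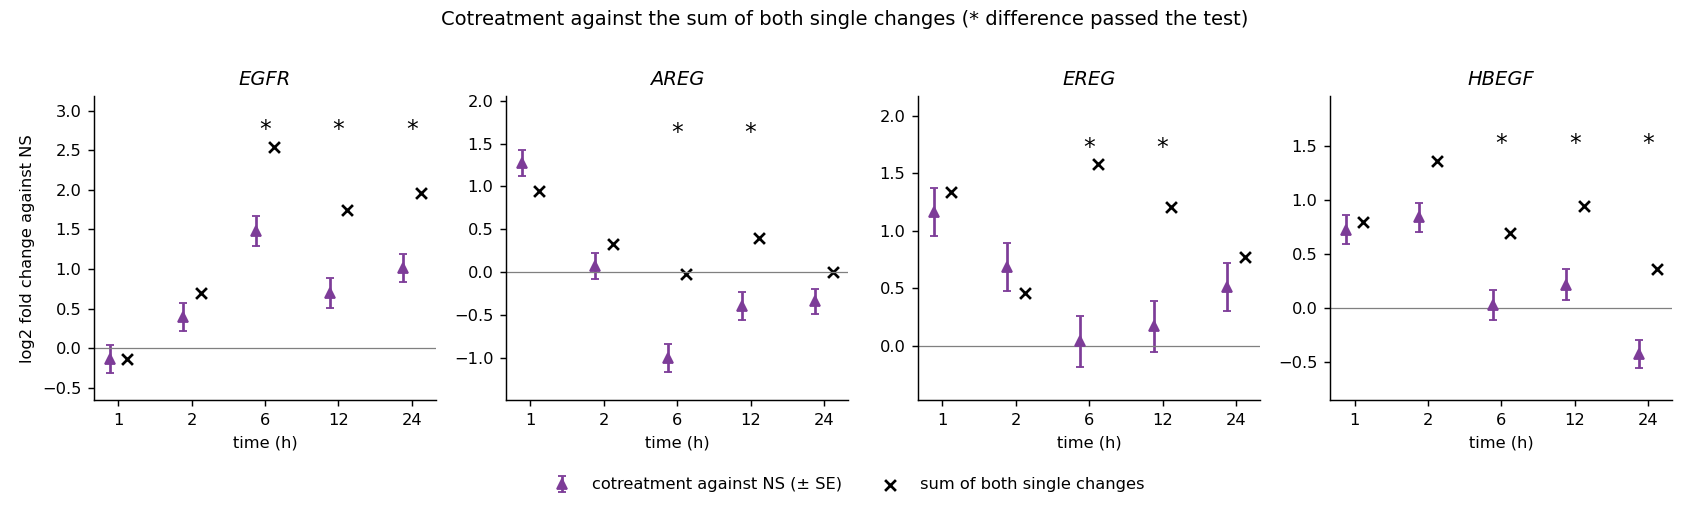
Log2 fold change against NS (vertical axes) with IL-1β-plus-budesonide (triangles, ± SE) and the sum of the changes with IL-1β and with budesonide (crosses) for 4 genes at 1 to 24 hours; an asterisk marks times at which the difference passed the test. For EREG at 6 hours the triangle lies 1.55 below the cross, and for EGFR at 6 hours 1.05 below it.

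The change against NS at 24 hours was also tested against the change at 1 hour, and 11 of 27 tests (9 genes with 3 treatments) passed. Only with replicate number added to the model did ERBB3 with IL-1β pass (-1.83, adjusted p = 0.00125). TGFA (-0.65, adjusted p = 0.00360) and EREG (-0.74, adjusted p = 0.0350) with budesonide also passed only in that model. The EGFR change was larger at 24 hours with IL-1β (by 0.75), budesonide (by 1.35) and IL-1β-plus-budesonide (by 1.15), and the ERRFI1 change was larger with budesonide (by 1.08) and IL-1β-plus-budesonide (by 0.56). EGFR averaged 19.7 TPM at 1 hour and 20.7 TPM at 24 hours with IL-1β, and 21.7 and 13.0 TPM in NS cells. The larger change with IL-1β thus went with a lower NS level and not with a higher IL-1β level. The same NS levels enter the other 2 EGFR differences. EGFR averaged 21.7 TPM at 1 hour and 33.9 TPM at 24 hours with budesonide, and 20.1 and 26.9 TPM with both agents. AREG went the other way, with differences of -1.004 with budesonide and -1.61 with IL-1β-plus-budesonide, as did HBEGF with -0.55 and -1.15 and TGFA with -0.88 with both agents. The BTC change was larger at 24 hours with both agents, by 0.70. Of these, calls were lost for EGFR with IL-1β without IL-1β replicate 1 (0.67) or 4 (0.61) at 24 hours (adjusted p = 0.0538 and 0.0818), and for BTC without IL-1β-plus-budesonide replicate 1 at 24 hours (0.65), IL-1β-plus-budesonide replicate 4 at 1 hour (0.58) or NS replicate 3 at 1 hour (0.59), with adjusted p from 0.0568 to 0.0847. The HBEGF difference with budesonide was lost without budesonide replicate 1 or 2 at 1 hour (-0.47 and -0.48) or NS replicate 4 at 24 hours (-0.41), with adjusted p from 0.0601 to 0.0989, and with quantile normalization (adjusted p = 0.0826). The AREG difference with budesonide was under 1 in size without any of 7 single libraries (-0.99 to -0.91, adjusted p of at most 0.000923), namely budesonide replicate 1 at 1 hour, budesonide replicates 1 and 4 at 24 hours, NS replicates 3 and 4 at 1 hour and NS replicates 1 and 2 at 24 hours, and the EGFR difference with both agents was 0.97 without IL-1β-plus-budesonide replicate 4 at 1 hour. Of all genes tested, 9.44% had a higher and 9.60% a lower change at 24 hours with IL-1β, 12.6% and 14.0% with budesonide, and 11.7% and 13.7% with IL-1β-plus-budesonide.

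Genes of the wider pathway were followed as lists chosen by known role, with earlier results of these data known, so their counts are descriptions. Their counts stand beside the shares of all genes at least 2-fold higher and lower at 1 or more times, which were 7.53% and 8.80% with IL-1β, 4.87% and 6.36% with budesonide, 7.64% and 7.92% with IL-1β-plus-budesonide against NS, and 5.15% and 5.60% with IL-1β-plus-budesonide against IL-1β. Of 19 transcripts that typically respond to ERK signalling, such as immediate early transcription factors, 14 were at least 2-fold higher and 0 at least 2-fold lower with IL-1β at 1 or more times (3 lower at an unadjusted p under 0.05). EGR1, FOSB and JUN led with rises of 5.97, 5.00 and 3.78 at 1 hour, and the list's median log2 change at 1 hour was 1.55, against -0.04 over all genes tested. With budesonide 1 was higher (FOS, by 2.94 at 6 hours) and 8 were lower, with falls of 2.22 in ETV4 and 2.03 in IER3 at 24 hours. IL-1β-plus-budesonide against NS gave 12 higher, again led by EGR1 (5.65), FOSB (3.74) and JUN (2.90) at 1 hour, and 2 lower. Against IL-1β alone it gave 1 higher (FOS, by 2.96 at 6 hours) and 10 lower, with falls of 3.06 in IER3 and 2.27 in PLAUR at 24 hours.

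Among 14 feedback inhibitors of the ERK pathway, IL-1β raised 3 at least 2-fold and lowered 0 (5 lower at an unadjusted p under 0.05), where 7.53% and 8.80% of all genes were. The 3 raised were the Sprouty gene SPRY4 (2.15 at 2 hours) and the ERK phosphatase genes DUSP5 (1.92 at 6 hours) and DUSP6 (1.29 at 6 hours). Budesonide raised 2, SPRY1 (1.88 at 2 hours) and DUSP6 (1.21 at 1 hour), and lowered 0 (9 lower at an unadjusted p under 0.05), where 4.87% and 6.36% of all genes were. With both agents against NS 4 rose, led by DUSP5 (1.80 at 1 hour), SPRY4 (1.61 at 2 hours) and DUSP6 (1.54 at 1 hour), where 7.64% of all genes did. Against IL-1β alone 2 were higher, with SPRY1 at 1.29 at 2 hours, and 3 were lower, with falls of 1.58 in DUSP5 at 6 hours and 1.29 in DUSP4 at 24 hours. Of all genes, 5.15% were higher and 5.60% lower in that comparison.

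Of 26 adaptor and kinase genes downstream of EGFR, IL-1β raised 2, the ERK kinase genes MAP2K1 (1.66 at 6 hours) and MAP2K2 (1.51 at 24 hours), and lowered 0 (9 lower at an unadjusted p under 0.05). Of all genes tested, 7.53% were at least 2-fold higher and 8.80% lower with IL-1β, so 2 of 26 raised was near the share. Budesonide raised the adaptor SHC1 (1.13 at 24 hours) and lowered the kinase gene SRC (1.41 at 6 hours), where 4.87% and 6.36% of all genes were. With both agents MAP2K2 (1.39 at 12 hours) and MAP2K1 (1.08 at 6 hours) rose against NS, and PIK3R1, the PI3K regulatory subunit, was higher than with IL-1β at 24 hours (1.17, adjusted p = 0.0193). The PIK3R1 call was lost without IL-1β replicate 2 (0.72, adjusted p = 0.188) or IL-1β-plus-budesonide replicate 1 (1.09, 0.0528) or 4 (0.93, 0.103), and with only the 24-hour libraries in the model (0.0548). Of 14 receptor trafficking and degradation genes tested, LRIG1, which restrains ERBB receptors, was the only one called in these 4 comparisons. As 1 of 14, it was near the share of all genes in each. LRIG1 rose by 1.33 with IL-1β and by 1.14 with IL-1β-plus-budesonide at 6 hours, and fell by 1.26 with budesonide at 24 hours and by 1.34 with IL-1β-plus-budesonide against IL-1β at 24 hours.

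Of 9 genes for ligand shedding that were tested, IL-1β raised ADAM17, the main sheddase of several EGFR ligands (1.17 at 6 hours), and RHBDF2, a cofactor of ADAM17 (1.13 at 6 hours). Budesonide raised ADAM15 (1.45 at 24 hours) and lowered ADAM12 (-1.56 at 24 hours). Of all genes tested, 7.53% were at least 2-fold higher with IL-1β, and 4.87% were higher and 6.36% lower with budesonide. With both agents RHBDF2 rose by 1.39 at 6 hours and ADAM15 by 1.03 at 24 hours against NS, and ADAM12 fell by 1.03 at 12 hours. The ADAM15 value was 0.97 without IL-1β-plus-budesonide replicate 1, and the ADAM12 call was lost without IL-1β-plus-budesonide replicate 2 (-0.76, adjusted p = 0.0635). Against IL-1β alone ADAM12 fell by 1.69 and ADAM19 by 1.49 at 12 hours, and ADAM15 rose by 1.30 at 24 hours. Of 7 other ERBB receptor and ligand genes, 4 were tested. NRG1, a neuregulin ligand of ERBB3, rose with IL-1β (1.18 at 6 hours), fell with budesonide (-1.40 at 24 hours) and with both agents (-1.39 at 12 hours), and fell by 1.85 against IL-1β at 6 hours. NRG2 rose by 1.88 with both agents against NS and by 2.38 against IL-1β at 6 hours. NRG4 fell at 6 hours with IL-1β (-2.002, adjusted p = 0.0189) and with both agents (-2.38, adjusted p = 0.00812). The call with IL-1β was lost without IL-1β replicate 1 (-1.78) or 3 (-1.39) or NS replicate 2 (-1.54), with adjusted p from 0.0571 to 0.134, and the call with both agents without NS replicate 2 (-1.91, adjusted p = 0.0809).

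**Figure D5:**
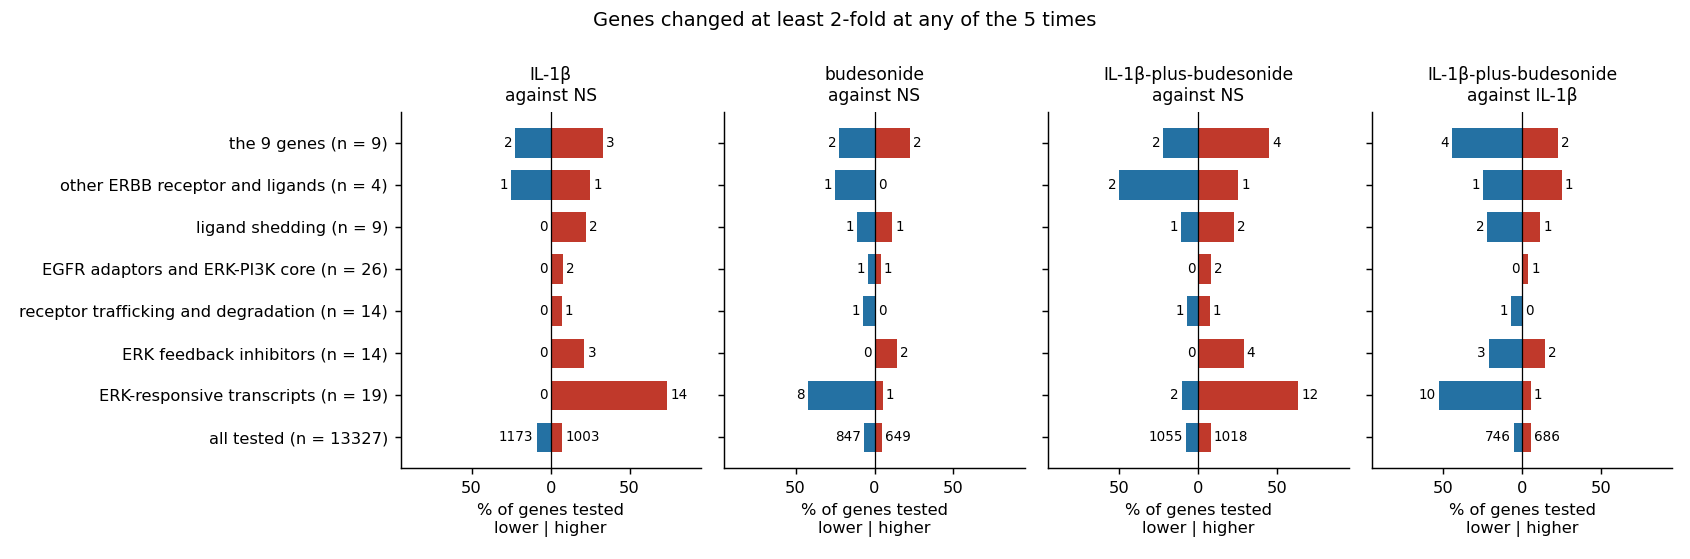
Share of genes (horizontal axes, in % of the genes tested in each list; bar labels give the number) changed at least 2-fold at any of the 5 times, higher (right) or lower (left), for the 9 genes, 6 pathway lists and all 13327 genes tested, in 4 comparisons. The ERK-responsive list shows 14 of 19 genes higher with IL-1β and 10 of 19 lower with IL-1β-plus-budesonide against IL-1β.

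The genes whose pattern over the 20 group means was most like that of each gene are given as a description, since group means share treatments and times. ERRFI1 was most like KLF9 (Pearson r = 0.970), ZFAND5 (0.965) and PER1 (0.953). EREG was most like PTGS2, which encodes cyclooxygenase-2 (0.957), NCOA7 (0.956) and HINT3 (0.953). AREG was most like the cytokine gene LIF (0.936), DDX10 (0.934) and BCAS2 (0.929), with EREG at 0.905 in rank 8. ERBB2 was most like CELSR2 (0.955), FAM171A2 (0.949) and SETBP1 (0.948), and ERBB3 most like TCFL5 (0.937), WDR72 (0.932) and SLC22A18 (0.927). EGFR was most like CXorf38 (0.892), ELK4 (0.889) and APOL2 (0.885). For the low ligands, the closest were SFR1 (0.903), the cytokine gene CSF2 (0.871) and MRPS28 (0.864) for HBEGF, RNF19A (0.918), LPAR6 (0.900) and ID4 (0.895) for TGFA, and GBA2 (0.924), PARP4 (0.921) and C19orf12 (0.915) for BTC. Between EGFR and ERBB2 the correlation over the same 20 means was -0.66, and between EGFR and ERRFI1 it was 0.38.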

How the data were processed

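Poly(A) RNA-seq libraries of A549 cells were quantified by the authors with kallisto on the GRCh38/hg38 transcriptome and normalized between libraries and summed to genes with sleuth; versions are not given in the sources used here. The deposited values are normalized TPM, treated as a signal because their sums per library differ, and they carry no read depth, so no counting error can be given. A second deposited table holds the authors' own comparisons (log2 fold changes and adjusted p-values) and was not used. The table held 79 libraries as rows, of which 1, named there as NS at 6 hours, replicate 3, had no label and was not analysed here, so that this group has 3 libraries.

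A linear model of log2(TPM + 0.5) with 1 mean per group was fitted to the 78 labelled libraries with limma 3.58.1 (R 4.3.3; trend in the moderation, 58 residual degrees of freedom, two-sided) over 13327 genes (those reaching 1 TPM in 3 or more libraries), with Benjamini-Hochberg adjustment over these genes within each comparison and time. The code was tested on simulated data in which libraries were independent, so that test does not cover shared effects of replicate number. The p-values measure the spread between libraries of 1 cell line and leave out replicate number, which the labels do not tie to shared experiments. Alternatives were pseudocounts of 0.1 and 1, no filter or a mean of at least 5 TPM, median-of-ratios scaling, quantile normalization, only the libraries of the times compared, the replicate block, no trend, omission of the libraries over 2 times the median distance from their group, and omission of each library in turn. The 9 genes are named throughout, and of each pathway list at most 3 called genes with the largest change per comparison. The 9 genes and the lists were chosen with earlier results of these data known.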

Additional observations from a re-analysis of the deposited data

Results flagged for a closer look

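Within groups of 4 libraries, 11 of 162 gene and group sets had 1 library far from the other 3 by Dixon's test, where chance gives about 1 in 20. EGFR was at 22.8 TPM in IL-1β replicate 1 at 1 hour (others 18.4 to 19.0) and 43.4 TPM in IL-1β replicate 3 at 6 hours (others 57.6 to 60.1). ERBB2 was at 47.6 TPM in IL-1β replicate 3 at 2 hours (others 34.0 to 35.5). ERBB3 was at 21.9 TPM in budesonide replicate 4 at 2 hours (others 7.98 to 10.2), 19.5 TPM in NS replicate 4 at 1 hour (others 6.06 to 7.57) and 34.8 TPM in NS replicate 4 at 12 hours (others 13.2 to 15.9). HBEGF was at 0.670 TPM in IL-1β-plus-budesonide replicate 4 at 24 hours (others 0.531 to 0.540) and 1.40 TPM in NS replicate 4 at 24 hours (others 0.790 to 0.831). In replicate 4 of NS at 2 hours ERRFI1 was at 45.3 TPM (others 40.6 to 41.2) and TGFA at 3.13 TPM (others 3.05 to 3.06), and BTC was at 4.09 TPM in budesonide replicate 3 at 12 hours (others 2.54 to 2.80). Over the 20 groups replicate 4 was the highest library in 17 for TGFA, 16 for ERBB3, 15 for HBEGF and 14 for ERRFI1, but in 2 for EGFR.

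The change against NS differed between 24 hours and 1 hour in 11 of 27 tests with limma without replicate number in the model, here as log2 differences. Of all genes tested, 9.44% had a higher and 9.60% a lower change at 24 hours with IL-1β. These shares were 12.6% and 14.0% with budesonide, and 11.7% and 13.7% with both agents. For EGFR the difference was 0.75 with IL-1β, 1.35 with budesonide and 1.15 with both agents, and for ERRFI1 1.08 with budesonide and 0.56 with both. The mean EGFR level in NS cells was 21.7 TPM at 1 hour and 13.0 TPM at 24 hours. For AREG it was -1.004 with budesonide and -1.61 with both agents, and for HBEGF -0.55 and -1.15. With both agents it was -0.88 for TGFA and 0.70 for BTC. The differences for EGFR with IL-1β, HBEGF with budesonide and BTC with both agents lost their call without single libraries, as given above.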

How the results depend on the processing

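Of 306 tests of the 9 genes, 136 passed and 97 of these kept their call under every alternative and without each library in turn; 0 changed direction. Of the 69 passed tests of at least 2-fold, 52 did. The number of tests called at 2-fold moved by over 1.5 times as follows. The 5 falls with budesonide were 3 with a pseudocount of 1 or quantile normalization. The 2 falls with IL-1β-plus-budesonide against NS were 4 with a pseudocount of 0.1, and 1 with a pseudocount of 1, median-of-ratios scaling or the replicate block. For the difference from the sum, the 0 calls above it were 2 with the replicate block and 1 without the libraries that stand apart, and the 4 below it were 2 with only the libraries of the times compared. The 3 lower changes at 24 than at 1 hour were 1 with a pseudocount of 1. Without each library in turn, the 5 falls with IL-1β ranged from 3 (without IL-1β replicate 2 at 12 hours) to 5, the falls with both agents against NS from 1 to 4, the 1 fall against budesonide from 0 (without budesonide replicate 4 at 6 hours) to 1, the calls below the sum from 2 to 5 and above it from 0 to 1, and the 1 rise in NS cells at 24 hours from 0 to 1.

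Replicate numbers were checked for pairing: 54 of 56 same-numbered pairs had a correlation of deviations over 0.1 (lowest 0.0793, median 0.248), and 54 of 56 correlated best with their own number, a hint from the data and not the design. With the replicate block, 1 passed test lost its 2-fold call (AREG at 6 hours with both agents against NS, -0.98), 28 tests came past an adjusted p of 0.05 and 6 were newly called, among them ERBB3 with both agents against IL-1β at 6 hours (1.21, adjusted p = 0.00177) and 12 hours (1.23, 0.00336). With the block, 6 of the 9 genes lay below the sum of both single effects and 2 above it, against 4 and 1 without it. ERRFI1 joined those below at 2, 6, 12 and 24 hours (adjusted p = 0.0410, 0.0353, 0.0425 and 0.0210) and TGFA at 24 hours (-0.70, 0.00251), HBEGF also passed there at 2 hours (-0.53, 0.0328), and ERBB3 was above at 12 and 24 hours (1.31, 0.0482; 1.54, 0.00865). Budesonide raised HBEGF at 2 and 6 hours (0.37, 0.0151; 0.31, 0.0346), and AREG with both agents was above IL-1β at 1 hour (0.50, 0.0157). Of 480 recomputed counts of the pathway lists, 25 moved by over 1.5 times. Neither scaling moved the median of all genes by over 0.0879. The cause of these shifts was not tested. The depth of the libraries is unknown, which limits what can be said of HBEGF and BTC.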
